A study of Mus musculus with 24 samples.

Results

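After 12 h of Kdo2 lipid A (KLA), both kinds of macrophage held more mRNA of the transcription factor gene Hif1a than controls of the same time. The same held for the glucose-trapping enzymes Hk1 and Hk2, the glycolytic regulator Pfkfb3 and the growth factor gene Vegfa. In EPM the Vegfa level still lay below that of untreated cells. The Hif1a rise passed under every alternative in both, while those of the other 4 genes missed the threshold under at least 1 alternative in EPM, and those of Hk2 and Vegfa also did in BMDM. In BMDM the glucose transporter gene Slc2a1 was higher as well, though not with array means as the samples. The 10 genes described are Hif1a, Slc2a1, Hk1, Hk2, Pfkfb3, Pgk1, Eno1, Pkm2, Ldha and Vegfa, chosen by name among the 21597 gene symbols on the array as a glycolysis and hypoxia-response set. All 10 were among the 17347 genes tested, and the probe used for each was well above background in all 24 channels.

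Glycolysis splits glucose into pyruvate in the cytosol and yields ATP without oxygen, and lactate dehydrogenase then turns pyruvate into lactate, which restores the NAD that the pathway needs. HIF1A, the oxygen-regulated subunit of hypoxia-inducible factor 1, pairs with ARNT and binds DNA upstream of genes for glucose transporters, glycolytic enzymes and VEGF. Macrophages that meet bacterial lipid A through the receptor TLR4 are known for a shift towards glycolysis and for making more HIF1A under normal oxygen, while resting B cells are small and quiescent.

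RNA levels were measured on 12 Agilent whole genome arrays with 2 colours, in which each array carried a single condition in both its Cy5 and its Cy3 channel. The labels do not say whether the 2 channels held RNA from separate cultures or the same RNA with both dyes, so it is unknown which spread the standard errors and p-values measure. KLA, a defined lipid A that activates TLR4, was compared with a control of the same time in 3 cell types from C57BL/6 mice, none with a genetic change named in the labels. Thioglycollate-elicited peritoneal macrophages (EPM) were untreated, given KLA for 1 h, given the solvent DMSO for 12 h or given KLA for 12 h. Bone marrow-derived macrophages (BMDM) were given DMSO or KLA for 1 h, and DMSO or KLA for 12 h. Resting splenic B cells, isolated by magnetic depletion of other cells, were untreated, given KLA for 1 h, given DMSO for 12 h or given KLA for 12 h. The early control was thus untreated in EPM and B cells and DMSO in BMDM, and each of the 12 conditions had n = 2 channels. Levels are log2 intensities after normalization, given as Cy5 and then Cy3, and they compare conditions for a gene but not one gene with another. Between 59.97% and 64.95% of spots were well above background in EPM channels, 58.23% to 61.24% in BMDM and 57.45% to 61.51% in B cells. A gene was called higher or lower at an adjusted p under 0.05 in limma, with the adjustment over all 17347 genes.

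The B cell labels conflicted between files. In the authors' table, the values under B cells with KLA for 1 h and those under B cells with DMSO for 12 h followed each other's scanner channels, with r across probes of 0.965 to 0.972 to the other condition and of -0.687 to -0.750 to their own. These r are of log2 values after the mean of each probe within the cell type was subtracted, and the other 20 columns followed their own channels (0.950 to 0.991). The scanner labels were kept, and B cell changes of the 10 genes and counts of the gene lists are also given with the labels exchanged. B cell values of the authors' table that use either of these columns hold the same exchange, so they are not a separate check of it. The 2 channels of a condition share an array and the 4 arrays of a cell type share a slide, so an array effect cannot be separated from the condition, nor a slide effect from the cell type. Well above background were 9 of 9 macrophage markers in each EPM and BMDM channel and 8 of 8 B cell markers in each B cell channel. In each macrophage 9 of 10 known TLR4 response genes were higher at 1 h (9.39% of all genes in EPM and 11.0% in BMDM). At 12 h 10 of 10 were higher in each (19.6% and 28.6%). In B cells limma called 0 of 10 at 1 h (2.72% of all genes higher and 2.45% lower) and found 5 of 10 higher at 12 h (2.81%). With the labels exchanged, 0 were higher and 5 lower at 1 h (25.0% and 22.4% of all genes in that setting) and 4 were higher and 4 lower at 12 h (24.8% and 24.4%) in B cells.

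In EPM at 1 h of KLA, 4 of the 10 genes were higher (background 9.39% of all genes tested) and 2 were lower (19.7%), with a median change of -0.079 against -0.046 over all genes. At 12 h in EPM, 6 were higher (19.6%) and 1 was lower (34.3%), with a median change of 0.25 against -0.061 over all genes. In BMDM the 1 h count was 1 higher (11.0%) and 1 lower (17.6%), with medians of -0.053 and -0.029. By 12 h in BMDM 6 were higher (28.6%) and 2 were lower (36.3%), and the median change was 0.75 against -0.025 over all genes. For higher genes the shares of the 10 at 12 h were thus above the background in both macrophages, and for lower genes they were below it. B cells at 1 h gave 0 higher (2.72%) and 0 lower (2.45%) by limma, with 0 of 10 at an unadjusted p under 0.05 and medians of -0.012 and 0.0057. At 12 h in B cells 2 were higher (2.81%) and 0 were lower (2.48%), with 3 of 10 at an unadjusted p under 0.05 and medians of -0.042 and -0.0094. With the dye as a block, 7 of the 10 were called in EPM at 1 h (40.7% of all genes) and 7 at 12 h (61.2%), 5 in BMDM at 1 h (39.7%) and 10 at 12 h (71.0%), and in B cells 0 by limma at 1 h (13.9%) and 5 at 12 h (11.2%).

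**Figure D1:**
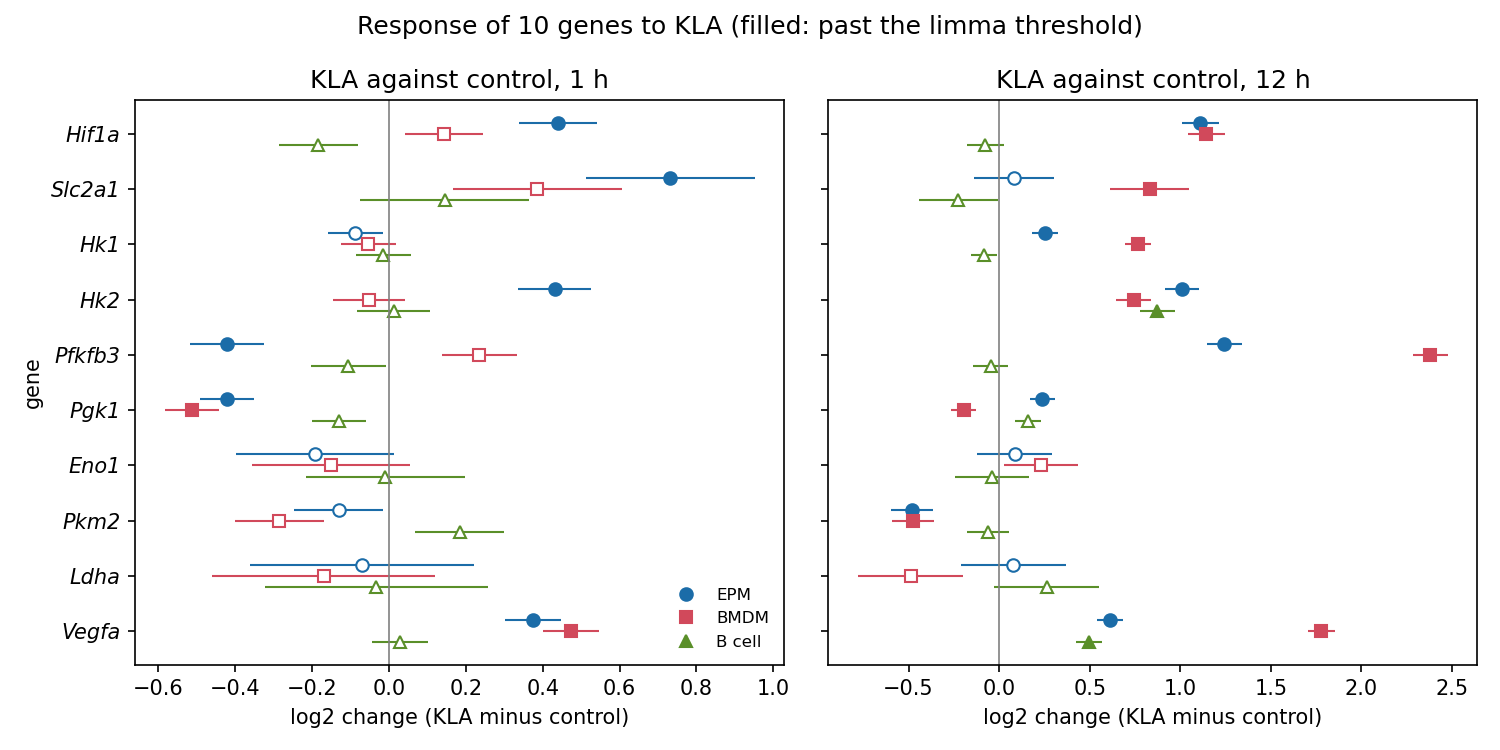
Log2 change (KLA minus the control of the same time) of the 10 genes at 1 h (left) and 12 h (right) in EPM (circles), BMDM (squares) and B cells (triangles), with bars for the standard error and filled symbols for changes past the limma threshold. At 12 h Pfkfb3 and Vegfa in BMDM lie farthest to the right, at 2.38 and 1.78, while Pkm2 lies left of 0 in both macrophages, at -0.48 and -0.47.

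Hif1a (probe on chromosome 12 of mm8, chr12:74865120-74865180) encodes the oxygen-regulated subunit of HIF1. In EPM its log2 intensity was 9.87 and 10.07 untreated, 10.34 and 10.48 after KLA for 1 h, 9.67 and 9.89 after DMSO for 12 h, and 10.75 and 11.03 after KLA for 12 h. In BMDM it was 9.65 and 9.63 after DMSO for 1 h, 9.86 and 9.72 after KLA for 1 h, 9.53 and 9.57 after DMSO for 12 h, and 10.73 and 10.66 after KLA for 12 h. Both KLA channels at 12 h stood above every control channel of their cell type, and at 1 h the KLA channels also stood above those of the control in both macrophages, with no overlap. B cells gave 9.68 and 9.75 untreated, 9.44 and 9.63 after KLA for 1 h, 9.72 and 9.74 after DMSO for 12 h, and 9.55 and 9.76 after KLA for 12 h, a range in which the KLA channels lay below the untreated ones at 1 h and overlapped with the control at 12 h. The change at 12 h was 1.11 (SE 0.102, adjusted p = 2.77e-08) or 2.16-fold in EPM. In BMDM it was 1.14 (SE 0.102, adjusted p = 1.16e-08) or 2.21-fold, and the difference between the cell types, -0.033, did not pass (adjusted p = 0.874). Without quantile normalization that difference was 0.40 and passed. At 1 h Hif1a rose in EPM by 0.44 (SE 0.102, adjusted p = 0.00292), whereas the BMDM value was 0.14 (SE 0.102, adjusted p = 0.337), and this difference of 0.29 did not pass (adjusted p = 0.251). The EPM change at 1 h no longer passed without the untreated Cy5 channel (0.34) or with array means as the samples (0.53). That alternative changes the unit of replication and also replaces the control of the same time by both control arrays of the cell type. Its KLA arm is a single array with no spread of its own.

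In the order of its levels, Hif1a was highest in EPM with KLA for 12 h, followed by BMDM with KLA for 12 h, EPM with KLA for 1 h and EPM untreated, each apart from the next in both channels. The other 8 conditions lay between means of 9.53 and 9.79, and of the neighbours in that order only BMDM DMSO at 1 h and at 12 h did not overlap. The SD over channels was 0.0122 to 0.203 (n = 2). At baseline Hif1a was higher in untreated EPM than in BMDM by 0.33 (SE 0.102, adjusted p = 0.0106) and lower in B cells than in EPM, at -0.25 (SE 0.102, adjusted p = 0.031). The former no longer passed without the untreated EPM Cy3 channel (0.23), with array means (0.28), with the scanner software's processed signal (0.29) or without quantile normalization (0.16). The latter no longer passed without the EPM untreated Cy3 channel (-0.15), without the B cell untreated Cy3 (-0.29) or Cy5 channel (-0.22), with array means (-0.15) or with the processed signal (-0.24), and it was -0.42 without quantile normalization. Between B cells and BMDM the Hif1a value was 0.073 (SE 0.102, adjusted p = 0.527), which turned to -0.26 and passed without quantile normalization.

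Slc2a1 (chr4:118635191-118635250, mm8) encodes GLUT1, the main glucose importer of leukocytes. In EPM its levels were 13.42 and 12.89 untreated, 14.10 and 13.67 after KLA for 1 h, 12.95 and 12.57 after DMSO for 12 h, and 12.96 and 12.73 after KLA for 12 h. In BMDM they were 12.29 and 11.95 after DMSO for 1 h, 12.67 and 12.34 after KLA for 1 h, 11.94 and 11.54 after DMSO for 12 h, and 12.77 and 12.38 after KLA for 12 h. The KLA channels at 1 h in EPM were the highest of all 24, above both untreated ones, while at 12 h the KLA and DMSO channels of EPM overlapped. Cy5 read higher than Cy3 in 12 of 12 conditions, so the dye added to the spread between the channels of this gene. B cells gave 12.14 and 11.83 untreated, 12.28 and 11.98 after KLA for 1 h, 11.87 and 11.41 after DMSO for 12 h, and 11.49 and 11.34 after KLA for 12 h. Slc2a1 rose by 0.73 (SE 0.220, adjusted p = 0.0171) in EPM at 1 h and was 0.081 (SE 0.220, adjusted p = 0.783) in EPM at 12 h. BMDM showed a rise of 0.83 (SE 0.220, adjusted p = 0.00284) at 12 h, after 0.39 (SE 0.220, adjusted p = 0.219) at 1 h. The difference between the EPM and BMDM responses at 12 h, -0.75 (SE 0.311, adjusted p = 0.056), missed the threshold.

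For Slc2a1 the EPM rise at 1 h no longer passed without the untreated Cy3 channel (0.46), without the KLA Cy5 channel (0.52) or with array means (0.93), and with array means the BMDM rise at 12 h, 0.64, did not pass either. With the dye as a block, the BMDM change at 1 h passed (adjusted p = 7.98e-05, in a range of 7.98e-05 to 0.649 over 17 alternatives). The block also brought the difference in response past the threshold at 12 h (adjusted p = 5.61e-07, in a range of 5.61e-07 to 0.425 over 21 alternatives) and at 1 h, where it was 0.35 (adjusted p = 0.0143, in a range of 0.0143 to 1.0 over 21 alternatives). At 12 h that difference passed too with quantile normalization over single channels (-0.80) and without the EPM DMSO 12 h Cy3 (-0.94), the BMDM DMSO 12 h Cy5 (-0.95) or the BMDM KLA 12 h Cy3 channel (-0.94). At baseline Slc2a1 was 2.05-fold higher in EPM than in BMDM (1.04, SE 0.220, adjusted p = 0.000536), and lower in B cells than in EPM (-1.17, SE 0.220, adjusted p = 9.05e-05). B cells and BMDM gave a difference of -0.13 (SE 0.220, adjusted p = 0.591), which was -0.52 and passed without quantile normalization. In the order of levels, EPM with KLA for 1 h stood alone at the top. The next 5 conditions (EPM untreated, EPM KLA 12 h, EPM DMSO 12 h, BMDM KLA 12 h and BMDM KLA 1 h) overlapped from neighbour to neighbour, as did the remaining 6 from B cell KLA 1 h down to B cell KLA 12 h. SDs were 0.101 to 0.381 (n = 2).

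Hexokinases trap glucose in the cell as glucose 6-phosphate. HK1 is the widely expressed form and HK2 the form best known as inducible, and both can bind mitochondria. Hk1 (chr10:61664525-61664584, mm8) had mean levels with SD (n = 2) of 12.68 ± 0.00495 untreated, 12.59 ± 0.0181 after KLA for 1 h, 12.62 ± 0.0733 after DMSO for 12 h and 12.87 ± 0.132 after KLA for 12 h in EPM. BMDM had 12.61 ± 0.0677 after DMSO for 1 h, 12.56 ± 0.0527 after KLA for 1 h, 12.66 ± 0.0321 after DMSO for 12 h and 13.43 ± 0.0458 after KLA for 12 h. B cells had 12.39 ± 0.0449 untreated, 12.38 ± 0.10 after KLA for 1 h, 12.39 ± 0.0224 after DMSO for 12 h and 12.30 ± 0.115 after KLA for 12 h. BMDM with KLA for 12 h and then EPM with KLA for 12 h stood above all other conditions, the next 6 macrophage conditions overlapped from neighbour to neighbour, and the 4 B cell conditions overlapped at the bottom. Hk1 rose at 12 h by 0.77 (SE 0.0717, adjusted p = 2.35e-08) in BMDM, in channels of 13.40 and 13.46 against 12.64 and 12.69. In EPM the rise was 0.25 (SE 0.0717, adjusted p = 0.00603), in channels of 12.78 and 12.96 against 12.56 and 12.67. The BMDM rise was the larger, with a difference of -0.51 (SE 0.101, adjusted p = 0.000404), which did not pass with array means (-0.57) and was -0.33 without quantile normalization and -0.79 and -0.28 on 2 other probes.

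The Hk1 rise in EPM no longer passed without the DMSO 12 h Cy5 (0.20) or the KLA 12 h Cy3 channel (0.16) or with array means (0.22), and it was 0.55 without quantile normalization, 0.47 in the authors' table and 0.40 as the mean of probes. Of the 6 probes for Hk1, 5 passed the filter, and the 4 that were not used gave EPM rises of 0.53, 0.57, 0.50 and 0.14. At baseline the Hk1 probes differed in direction. The brightest probe gave 0.069 (SE 0.0717, adjusted p = 0.432) for EPM minus BMDM, and the others gave -0.49, -0.56, -0.38 and -0.19, all past the threshold, with -0.31 as the mean of probes. B cells were lower than EPM (-0.29, SE 0.0717, adjusted p = 0.00141) and lower than BMDM (-0.22, SE 0.0717, adjusted p = 0.0108) on that brightest probe. The difference from EPM did not pass as the mean of probes (-0.11), with array means (-0.26) or on 3 other probes (-0.12, -0.0049 and 0.11), and it was -0.66 without quantile normalization. The difference from BMDM did not pass without the BMDM DMSO 1 h Cy3 (-0.17) or the B cell untreated Cy5 channel (-0.18), with array means (-0.25) or on 1 other probe (-0.084), while it was -0.63 without quantile normalization, -0.42 as the mean of probes and -0.61, -0.56 and -0.62 on the other 3.

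Hk2 (chr6:82690720-82690779, mm8) had log2 levels in EPM of 12.00 and 11.91 untreated, 12.44 and 12.33 after KLA for 1 h, 12.07 and 11.98 after DMSO for 12 h, and 13.11 and 12.97 after KLA for 12 h. BMDM had 11.78 and 11.68 after DMSO for 1 h, 11.75 and 11.60 after KLA for 1 h, 11.55 and 11.54 after DMSO for 12 h, and 12.39 and 12.19 after KLA for 12 h. Each KLA channel at 12 h lay above each control channel of the same macrophage, and at 1 h this held in EPM and not in BMDM, where KLA and control channels overlapped. In B cells the levels were 10.53 and 10.35 untreated, 10.51 and 10.40 after KLA for 1 h, 9.63 and 9.35 after DMSO for 12 h, and 10.41 and 10.31 after KLA for 12 h, with the DMSO 12 h channels the lowest of all 24. Hk2 rose in EPM by 0.43 (SE 0.0948, adjusted p = 0.00189) at 1 h. At 12 h the EPM rise was 1.01 (SE 0.0948, adjusted p = 3.78e-08) or 2.02-fold, and the BMDM rise was 0.74 (SE 0.0948, adjusted p = 1.46e-06) or 1.67-fold. The BMDM value at 1 h was -0.052 (SE 0.0948, adjusted p = 0.746), and the responses at 1 h differed by 0.48 (SE 0.134, adjusted p = 0.0271). That difference no longer passed without the EPM untreated Cy3 (0.44), EPM KLA 1 h Cy5 (0.43), BMDM DMSO 1 h Cy5 (0.44) or BMDM KLA 1 h Cy3 channel (0.41), with array means (0.35) or with the processed signal (0.54). At 12 h the responses differed by 0.27 (SE 0.134, adjusted p = 0.11), which passed with the dye as a block (adjusted p = 0.00598, in a range of 0.000471 to 0.821 over 21 alternatives), without quantile normalization (0.65) and without the BMDM KLA 12 h Cy5 channel (0.37).

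With array means, Hk2 did not pass in EPM at 1 h (0.39) or 12 h (1.05) or in BMDM at 12 h (0.65). In B cells at 12 h Hk2 was higher with KLA by 0.87 (SE 0.0948, adjusted p = 4.46e-06) under the scanner labels. With the labels exchanged the value was -0.092 and did not pass, nor did that of array means (0.40). The authors' table, which holds the same exchange, gave -0.056, also not past the threshold. The exchanged labels gave -0.95 for Hk2 at 1 h, past the threshold, against 0.012 under the scanner labels. Baseline Hk2 was 2.85-fold lower in B cells than in EPM (-1.51, SE 0.0948, adjusted p = 3.13e-11), and 2.44-fold lower than in BMDM (-1.29, SE 0.0948, adjusted p = 3.79e-10), with no overlap of channels. EPM minus BMDM gave 0.22 (SE 0.0948, adjusted p = 0.0513), which passed with the dye as a block (adjusted p = 0.00125, in a range of 0.00125 to 0.51 over 17 alternatives). It also passed with quantile normalization over single channels (0.24), in the authors' table (0.27) and centred on the median gene (0.24). In an alternative added after the data were seen, with only the EPM and BMDM arrays, it passed too (0.22). Hk2 has 1 probe, so the mean of probes left its value at 0.22, and the pass there came from the other genes in the fit. In the order of levels EPM with KLA for 12 h came first, followed by the overlapping pair of EPM KLA 1 h and BMDM KLA 12 h. Then came EPM DMSO 12 h and EPM untreated, which overlapped, BMDM DMSO 1 h and BMDM KLA 1 h, which overlapped, BMDM DMSO 12 h, 3 overlapping B cell conditions and B cell DMSO 12 h. SDs were 0.00679 to 0.198 (n = 2).

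Pfkfb3 (chr2:11389805-11389864, mm8) makes fructose 2,6-bisphosphate, the strongest allosteric activator of phosphofructokinase. EPM channels read 12.08 and 12.14 untreated, 11.63 and 11.74 after KLA for 1 h, 11.88 and 11.96 after DMSO for 12 h, and 13.10 and 13.23 after KLA for 12 h. BMDM channels read 12.63 and 12.78 after DMSO for 1 h, 12.89 and 12.99 after KLA for 1 h, 11.84 and 11.98 after DMSO for 12 h, and 14.24 and 14.34 after KLA for 12 h. Both KLA channels at 12 h were the highest of their cell type, and at 1 h the KLA channels lay below the untreated ones in EPM and above the DMSO ones in BMDM. B cells were lower than every macrophage channel and overlapped with each other, at 10.90 and 10.94 untreated, 10.66 and 10.97 after KLA for 1 h, 10.87 and 11.07 after DMSO for 12 h, and 10.85 and 11.00 after KLA for 12 h. The rise at 12 h was 2.38 (SE 0.0969, adjusted p = 1.49e-13) or 5.21-fold in BMDM, the largest change of the 10 genes in any KLA comparison. In EPM it was 1.24 (SE 0.0969, adjusted p = 2.82e-09) or 2.37-fold, and the responses differed by -1.14 (SE 0.137, adjusted p = 1.9e-06). At 1 h Pfkfb3 fell in EPM (-0.42, SE 0.0969, adjusted p = 0.00267) and was 0.24 (SE 0.0969, adjusted p = 0.0803) in BMDM, and these responses differed (-0.66, SE 0.137, adjusted p = 0.00353). The BMDM value at 1 h passed with the dye as a block (adjusted p = 0.00197, in a range of 0.00197 to 0.715 over 19 alternatives), without quantile normalization (0.30), in the authors' table (0.41), as the mean of probes (0.23) and on 1 other probe (0.32).

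The other 2 probes for Pfkfb3 were dimmer. They gave -0.22 and 0.0047 in EPM at 1 h, the latter not past the threshold, and the mean of probes gave -0.21. For the difference in response at 1 h they gave -0.33 and -0.32, the latter not past the threshold, with -0.44 as the mean of probes. At 12 h in EPM the first of them gave 0.64. With array means, the EPM changes at 1 h (-0.33) and 12 h (1.15) and both differences in response (-0.96 and -0.83) did not pass. At baseline Pfkfb3 was lower in EPM than in BMDM (-0.60, SE 0.0969, adjusted p = 3.38e-05), a difference not passed with array means (-0.29) or on 1 other probe (-0.12). B cells were 3.44-fold lower than BMDM (-1.78, SE 0.0969, adjusted p = 3.95e-12) and lower than EPM (-1.18, SE 0.0969, adjusted p = 1.75e-09). The dimmer probes gave -0.33 and -0.18 against BMDM, the latter not past the threshold. Against EPM they gave -0.21 and 0.34, the latter past the threshold in the other direction, and the means of probes were -0.76 and -0.35. In the order of levels BMDM KLA 12 h, EPM KLA 12 h, BMDM KLA 1 h, BMDM DMSO 1 h and EPM untreated were each apart from the next. EPM DMSO 12 h and BMDM DMSO 12 h overlapped, EPM KLA 1 h followed, and the 4 B cell conditions overlapped at the bottom, with SDs of 0.0291 to 0.220 (n = 2).

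**Figure D2:**
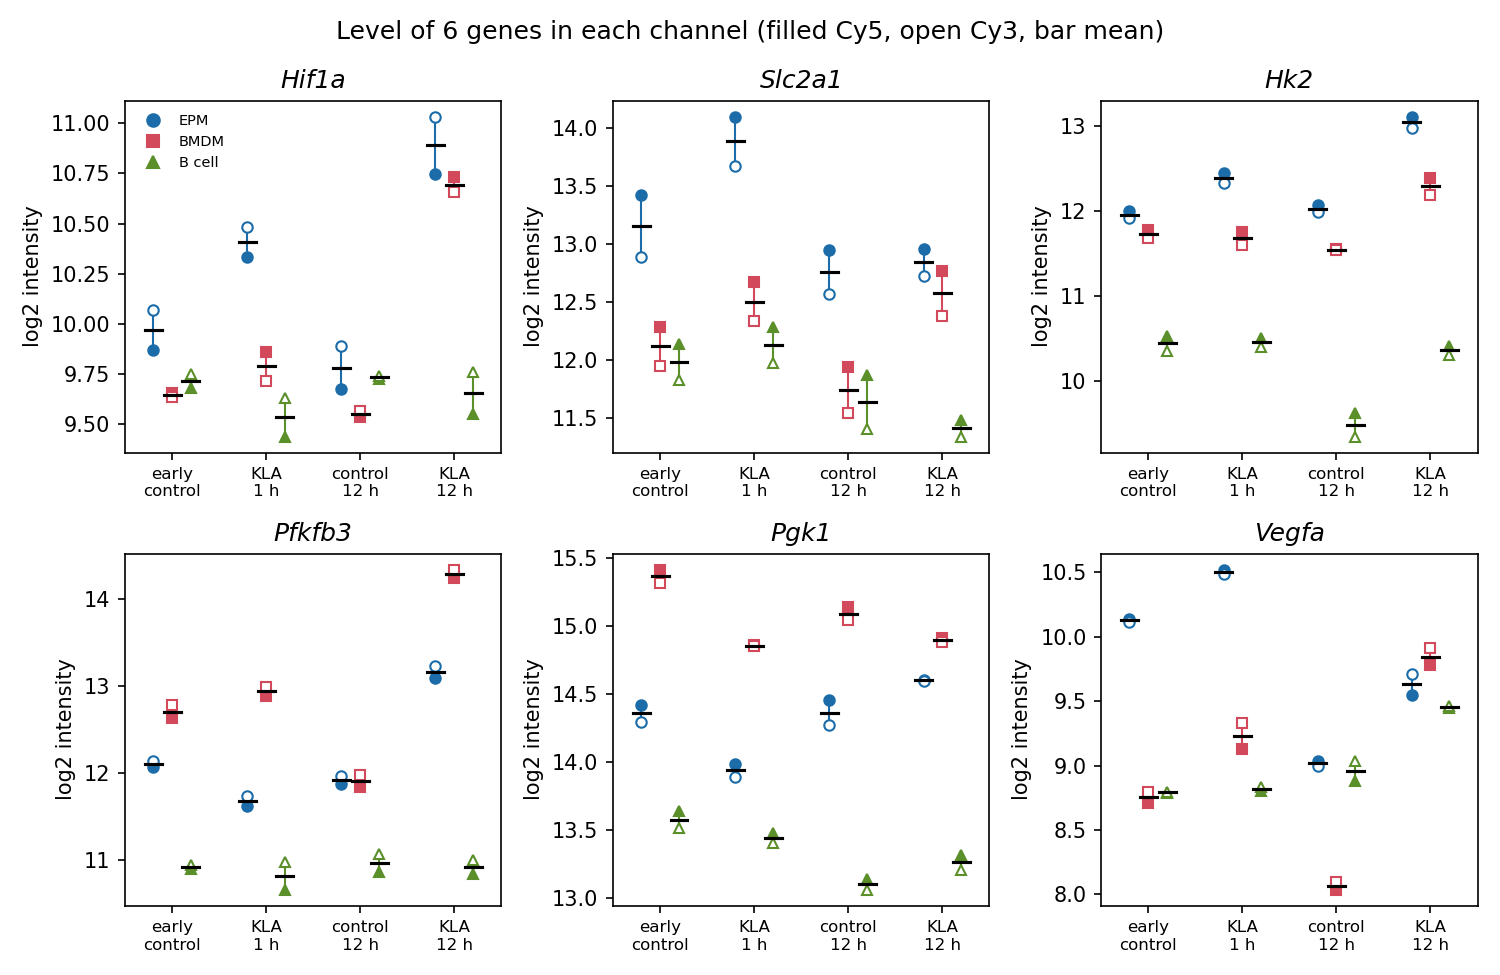
Log2 intensity of Hif1a, Slc2a1, Hk2, Pfkfb3, Pgk1 and Vegfa in each channel (filled Cy5, open Cy3, bar for the mean) for the early control, KLA 1 h, the 12 h control and KLA 12 h, with EPM as circles, BMDM as squares and B cells as triangles. Pfkfb3 in BMDM reaches 14.24 and 14.34 after 12 h of KLA from 11.84 and 11.98 in its control, and Pgk1 in BMDM is highest in its early control, at 15.42 and 15.32.

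Pgk1 (chrX:102406147-102406206, mm8) makes the first ATP of the pathway from 1,3-bisphosphoglycerate. Its EPM channels were 14.42 and 14.30 untreated, 13.98 and 13.89 after KLA for 1 h, 14.45 and 14.27 after DMSO for 12 h, and 14.60 and 14.60 after KLA for 12 h. Its BMDM channels were 15.42 and 15.32 after DMSO for 1 h, 14.86 and 14.85 after KLA for 1 h, 15.14 and 15.04 after DMSO for 12 h, and 14.91 and 14.88 after KLA for 12 h. In both macrophages the KLA channels at 1 h were below the early control channels, and at 12 h they were above control in EPM and below control in BMDM. The B cell channels, at 13.64 and 13.51 untreated, 13.48 and 13.41 after KLA for 1 h, 13.14 and 13.06 after DMSO for 12 h, and 13.31 and 13.21 after KLA for 12 h, were lower than all macrophage channels. Pgk1 fell at 1 h in EPM (-0.42, SE 0.0709, adjusted p = 0.00016) and in BMDM (-0.51, SE 0.0709, adjusted p = 2.15e-05). At 12 h it rose by 0.24 (SE 0.0709, adjusted p = 0.00798) in EPM and was lower in BMDM (-0.20, SE 0.0709, adjusted p = 0.0216), and these responses differed (0.44, SE 0.10, adjusted p = 0.00158). The BMDM value at 12 h turned to 0.039 without quantile normalization and to 0.024 in the authors' table, neither past the threshold.

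The direction of Pgk1 in BMDM at 12 h thus changed with the scaling. It also failed to pass with the processed signal (-0.15), with array means (-0.33), on the other probe (-0.44) and without the DMSO Cy5 (-0.15), KLA Cy3 (-0.18) or KLA Cy5 channel (-0.21), and it was -0.32 as the mean of probes. The Pgk1 rise in EPM at 12 h did not pass without the DMSO Cy3 channel (0.15), with array means (0.24), on the other probe (0.23) or as the mean of probes (0.23), and it was 0.54 without quantile normalization and 0.52 in the authors' table. At 1 h in EPM the fall did not pass in the authors' table (-0.15), with array means (-0.42) or on the other probe (-0.30), and it was -0.24 without quantile normalization. At 1 h in BMDM it did not pass in the authors' table (-0.46) or with array means (-0.38), and it was -0.31 without quantile normalization. The difference in response at 12 h did not pass in the authors' table (0.49), with array means (0.57) or on the other probe (0.67).

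Baseline Pgk1 was 2.01-fold lower in EPM than in BMDM (-1.01, SE 0.0709, adjusted p = 5.7e-10), 3.47-fold lower in B cells than in BMDM (-1.80, SE 0.0709, adjusted p = 2.95e-14) and lower in B cells than in EPM (-0.79, SE 0.0709, adjusted p = 7.26e-09), a value of -1.22 without quantile normalization. All 12 conditions of Pgk1 were apart from their neighbours except EPM DMSO 12 h and EPM untreated. From the top they ran BMDM DMSO 1 h, BMDM DMSO 12 h, BMDM KLA 12 h, BMDM KLA 1 h, EPM KLA 12 h, that EPM pair, EPM KLA 1 h, and then B cells untreated, with KLA for 1 h, with KLA for 12 h and with DMSO for 12 h. SDs were 0.00276 to 0.129 (n = 2).

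Eno1 (chr4:149087825-149088050, mm8) encodes enolase, which forms phosphoenolpyruvate. Its mean levels with SD (n = 2) were 9.84 ± 0.357 untreated, 9.65 ± 0.117 after KLA for 1 h, 10.00 ± 0.166 after DMSO for 12 h and 10.08 ± 0.251 after KLA for 12 h in EPM. In BMDM they were 10.24 ± 0.249 after DMSO for 1 h, 10.08 ± 0.279 after KLA for 1 h, 10.00 ± 0.189 after DMSO for 12 h and 10.23 ± 0.278 after KLA for 12 h. In B cells they were 8.56 ± 0.166 untreated, 8.55 ± 0.176 after KLA for 1 h, 8.37 ± 0.313 after DMSO for 12 h and 8.33 ± 0.259 after KLA for 12 h. The 8 macrophage conditions overlapped from neighbour to neighbour, all lay above the 4 B cell conditions, and these overlapped too. Eno1 passed in none of the 6 KLA comparisons, with values from -0.19 (EPM, 1 h) to 0.23 (BMDM, 12 h), and Cy3 read higher than Cy5 in 12 of 12 conditions. With the dye as a block both of these values passed (adjusted p = 0.0248, in a range of 0.0248 to 0.897 over 17 alternatives, at 1 h in EPM, and adjusted p = 0.00356, in a range of 0.00356 to 0.914 over 17 alternatives, at 12 h in BMDM). B cells were 3.20-fold lower than BMDM (-1.68, SE 0.206, adjusted p = 5.35e-07) and lower than EPM (-1.29, SE 0.206, adjusted p = 1.47e-05). EPM minus BMDM was -0.39 (SE 0.206, adjusted p = 0.114), which passed with the dye as a block (adjusted p = 1.74e-05, in a range of 1.74e-05 to 0.659 over 17 alternatives), without quantile normalization (-0.55) and without the EPM untreated Cy3 channel (-0.65).

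Pkm2 (chr9:59477106-59477165, mm8) encodes pyruvate kinase of the muscle type, which makes pyruvate and ATP. In EPM the channels were 13.82 and 13.82 untreated, 13.65 and 13.73 after KLA for 1 h, 13.98 and 14.04 after DMSO for 12 h, and 13.47 and 13.58 after KLA for 12 h. In BMDM they were 14.59 and 14.55 after DMSO for 1 h, 14.25 and 14.32 after KLA for 1 h, 14.21 and 14.48 after DMSO for 12 h, and 13.63 and 14.12 after KLA for 12 h. At 12 h both KLA channels were below both control channels in each macrophage, by a narrow gap in BMDM, where the 2 KLA channels were far apart. B cells gave 11.97 and 11.89 untreated, 12.12 and 12.11 after KLA for 1 h, 11.59 and 11.73 after DMSO for 12 h, and 11.49 and 11.70 after KLA for 12 h, below every macrophage channel. The change at 12 h was -0.48 (SE 0.116, adjusted p = 0.00173) in EPM and -0.47 (SE 0.116, adjusted p = 0.00156) in BMDM, and the responses differed by -0.0091 (SE 0.165, adjusted p = 0.971). At 1 h the values were -0.13 (SE 0.116, adjusted p = 0.451) in EPM and -0.29 (SE 0.116, adjusted p = 0.0773) in BMDM. The BMDM value at 1 h passed with the dye as a block (adjusted p = 0.0145, in a range of 0.00944 to 0.958 over 18 alternatives), as the mean of probes (-0.26) and on the second probe (-0.23).

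The Pkm2 falls at 12 h shrank under other scalings. In EPM they did not pass without quantile normalization (-0.14), in the authors' table (-0.20), with array means (-0.39) or on the second probe (-0.14), and the mean of probes gave -0.31. In BMDM they did not pass without quantile normalization (-0.26), in the authors' table (-0.042), with array means (-0.58) or without the KLA Cy5 channel (-0.23), and the value was -0.72 without the KLA Cy3 channel and -0.25 on the second probe. At baseline B cells were 6.23-fold lower than BMDM (-2.64, SE 0.116, adjusted p = 1.6e-13) and 3.71-fold lower than EPM (-1.89, SE 0.116, adjusted p = 2.41e-11). EPM was lower than BMDM (-0.75, SE 0.116, adjusted p = 2.16e-05), which did not pass with array means (-0.54). The order ran from BMDM DMSO 1 h through the overlapping BMDM DMSO 12 h and BMDM KLA 1 h to the neighbours EPM DMSO 12 h, BMDM KLA 12 h and EPM untreated, which overlapped. EPM KLA 1 h, EPM KLA 12 h, B cells with KLA for 1 h and B cells untreated followed, each apart from the next, and B cells with DMSO and with KLA for 12 h overlapped at the bottom. SDs were 0.00467 to 0.346 (n = 2).

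Ldha (chr7:46723561-46723620, mm8) encodes the lactate dehydrogenase subunit that favours lactate formation. Its mean levels with SD (n = 2) were 15.82 ± 0.442 untreated, 15.75 ± 0.432 after KLA for 1 h, 15.79 ± 0.287 after DMSO for 12 h and 15.86 ± 0.280 after KLA for 12 h in EPM. BMDM gave 15.49 ± 0.381 after DMSO for 1 h, 15.32 ± 0.402 after KLA for 1 h, 15.30 ± 0.414 after DMSO for 12 h and 14.81 ± 0.268 after KLA for 12 h. B cells gave 14.54 ± 0.324 untreated, 14.50 ± 0.390 after KLA for 1 h, 13.76 ± 0.193 after DMSO for 12 h and 14.03 ± 0.238 after KLA for 12 h. Cy5 read higher than Cy3 in 12 of 12 conditions, so the SDs were wide and the 7 highest conditions, 4 of EPM and 3 of BMDM, overlapped from neighbour to neighbour. BMDM with KLA for 12 h came next and overlapped with B cells untreated and with KLA for 1 h, and the 2 B cell conditions at 12 h, which overlapped, were lowest. Ldha passed in none of the 6 KLA comparisons. In BMDM at 12 h the KLA channels, 15.00 and 14.62, lay below the DMSO channels, 15.60 and 15.01. The value was -0.49 (SE 0.291, adjusted p = 0.151) and in the authors' table -0.0036, neither past the threshold. The former passed with the dye as a block (adjusted p = 2.6e-06, in a range of 2.6e-06 to 0.992 over 18 alternatives). The change also passed as the mean of probes (-0.45) and on the second probe (-0.41). That second probe was also lower with KLA at 1 h, at -0.47 in EPM and -0.42 in BMDM, both past the threshold, where the brighter probe gave -0.070 and -0.17. The responses of EPM and BMDM at 12 h differed by 0.57 (SE 0.411, adjusted p = 0.273), which passed with the dye as a block (adjusted p = 6.41e-05, in a range of 6.41e-05 to 0.654 over 22 alternatives) and on the second probe (0.39).

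At baseline Ldha was lower in B cells than in EPM (-1.28, SE 0.291, adjusted p = 0.00057) and than in BMDM by -0.96 (SE 0.291, adjusted p = 0.0062). The latter no longer passed without the BMDM DMSO 1 h Cy5 (-0.69) or the B cell untreated Cy3 channel (-0.73). EPM minus BMDM was 0.33 (SE 0.291, adjusted p = 0.354), which passed with the dye as a block (adjusted p = 0.000418, in a range of 5.09e-05 to 0.973 over 18 alternatives) and on the second probe (0.47).

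Vegfa (chr17:45482144-45482203, mm8) encodes the vascular growth factor VEGF-A, a known target of HIF1. EPM channels were 10.14 and 10.12 untreated, 10.52 and 10.48 after KLA for 1 h, 9.04 and 9.0001 after DMSO for 12 h, and 9.55 and 9.71 after KLA for 12 h. BMDM channels were 8.71 and 8.80 after DMSO for 1 h, 9.13 and 9.33 after KLA for 1 h, 8.04 and 8.10 after DMSO for 12 h, and 9.78 and 9.91 after KLA for 12 h. KLA channels stood above the control of the same time at both times in both macrophages, and the 12 h controls stood below the early ones. In EPM the KLA channels at 12 h lay below both untreated channels. In B cells the channels were 8.79 and 8.80 untreated, 8.81 and 8.83 after KLA for 1 h, 8.88 and 9.04 after DMSO for 12 h, and 9.45 and 9.46 after KLA for 12 h, with both KLA channels at 12 h above the rest. Vegfa rose at 1 h by 0.37 (SE 0.0726, adjusted p = 0.00064) in EPM and by 0.47 (SE 0.0726, adjusted p = 6.61e-05) in BMDM. At 12 h the rise was 1.78 (SE 0.0726, adjusted p = 1.55e-13) or 3.43-fold in BMDM and 0.61 (SE 0.0726, adjusted p = 8.57e-07) or 1.53-fold in EPM, and the responses differed by -1.17 (SE 0.103, adjusted p = 3.51e-08). B cells showed a rise of 0.49 (SE 0.0726, adjusted p = 0.000165) at 12 h, and of 0.63 with the labels exchanged, which also passed.

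The size of the Vegfa rise depended on the processing, the probe, and the unit and control used, the last 2 of which array means change together. In EPM it did not pass at 1 h with the processed signal (0.35) or with array means (0.93), nor at 12 h with the processed signal (0.28), in the authors' table (0.32), with array means (0.057) or on 1 of the other 2 probes (0.30). In BMDM it did not pass with array means at 1 h (0.82) or 12 h (1.44), and at 12 h it was 1.04 with the processed signal, 0.90 in the authors' table and 0.85 on that other probe. In B cells at 12 h it did not pass with the processed signal (0.52), with array means (0.58) or on that probe (0.46), and the third probe gave 0.33. Nor did it pass in the authors' table (0.22). There the control column followed the scanner channels labelled KLA for 1 h, so the processing and the labels changed together. The difference in response at 12 h was -0.76 with the processed signal, -0.77 without quantile normalization, -0.58 in the authors' table and -0.55 on that probe, all past the threshold, and it did not pass with array means (-1.38).

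At baseline Vegfa was 2.59-fold higher in EPM than in BMDM (1.37, SE 0.0726, adjusted p = 8.71e-12) and lower in B cells than in EPM (-1.34, SE 0.0726, adjusted p = 3.49e-12). The former was 0.88 in the authors' table and 0.85 on another probe, and did not pass with array means (1.16). The latter was -0.53 with the processed signal, -0.64 in the authors' table and -0.51 on that probe, and did not pass with array means (-0.70). B cells minus BMDM gave 0.037 (SE 0.0726, adjusted p = 0.659), which turned to -0.31 past the threshold without quantile normalization and was 0.48 past it with the processed signal, 0.15 as the mean of probes and 0.34 on that probe. In the order of levels EPM KLA 1 h, EPM untreated, BMDM KLA 12 h, EPM KLA 12 h, B cell KLA 12 h and BMDM KLA 1 h were each apart from the next. EPM DMSO 12 h and B cell DMSO 12 h overlapped, B cell KLA 1 h followed, B cells untreated and BMDM DMSO 1 h overlapped, and BMDM DMSO 12 h was lowest. SDs were 0.00576 to 0.142 (n = 2).

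Baseline levels set the B cells apart. Against EPM, 0 of the 10 genes were higher in B cells (38.5% of all genes) and 10 were lower (38.6%), with 10 at an unadjusted p under 0.05 and a median of -1.23 against -0.0074 over all genes. Against BMDM, 0 were higher (37.5%) and 7 were lower (39.1%), with 7 at an unadjusted p under 0.05 and a median of -1.12 against -0.026. Against BMDM the widest gaps were those of Pkm2, Pgk1, Pfkfb3 and Eno1. For EPM minus BMDM, 3 were higher (28.5%), namely Vegfa, Slc2a1 and Hif1a, and 3 were lower (29.3%), namely Pgk1, Pkm2 and Pfkfb3. With array means 2 of these 6 passed, Slc2a1 and Pgk1. In these bulk samples fewer cells of a type and less RNA per cell cannot be told apart.

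Several genes moved in the controls between the early and the 12 h sample. In EPM 0 of the 10 genes were higher in the 12 h control (10.8%) and 1 was lower (8.31%), with 1 at an unadjusted p under 0.05. It was Vegfa, at -1.11 (SE 0.0726, adjusted p = 5.5e-09). In BMDM 0 were higher (13.2%) and 3 were lower (9.99%), with 3 at an unadjusted p under 0.05. These were Pfkfb3 at -0.80 (SE 0.0969, adjusted p = 8.46e-06), Vegfa at -0.69 (SE 0.0726, adjusted p = 1.55e-06) and Pgk1 at -0.28 (SE 0.0709, adjusted p = 0.00824). The Pfkfb3 value was -0.50 as the mean of probes and -0.27 and -0.44 on its other probes, and that of Vegfa was -1.16 with the processed signal. Pgk1 did not pass without the DMSO 1 h Cy5 (-0.23) or DMSO 12 h Cy3 channel (-0.23), in the authors' table (-0.30), as the mean of probes (-0.27) or on its other probe (-0.27).

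In B cells 0 were higher in the 12 h control (25.0%) and 3 were lower (22.4%), with 5 at an unadjusted p under 0.05. These were Hk2 at -0.95 (SE 0.0948, adjusted p = 1.31e-07), Pgk1 at -0.47 (SE 0.0709, adjusted p = 1.94e-05) and Ldha at -0.77 (SE 0.291, adjusted p = 0.0362). With the B cell labels exchanged, none of the 10 passed in limma, and the same genes had 0.012, -0.13 and -0.033. In the authors' table, which holds the same exchange, they had 0.0059, -0.18 and -0.030, none past the threshold. Ldha also did not pass without the untreated Cy5 (-0.54), the DMSO 12 h Cy3 (-0.64) or the DMSO 12 h Cy5 channel (-0.91). With the dye as a block, the controls also differed for Slc2a1 (-0.39) and Pfkfb3 (-0.19) in EPM. In BMDM the block added Slc2a1 (-0.37), Hk2 (-0.19) and Eno1 (-0.24). In B cells it added Slc2a1 (-0.35), Eno1 (-0.18), Pkm2 (-0.27) and Vegfa (0.17), which was 0.24 and passed without the DMSO 12 h Cy5 channel. Other Hk1 probes differed between controls, at -0.21 in BMDM and -0.35 and -0.28 in B cells, where the mean of probes gave -0.19. Pkm2 was higher in the 12 h control of EPM on its second probe (0.33) and as the mean of probes (0.26), and lower in that of B cells with the processed signal (-0.33) and without quantile normalization (-0.37), all past the threshold.

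The B cell response depended on the labels, and its difference from the macrophage response was not tested. Under the scanner labels the values at 1 h ran from -0.18 (Hif1a) to 0.18 (Pkm2). With the labels exchanged, 0 of the 10 were higher (25.0% of all genes in that setting) and 3 were lower (22.4%) with KLA at 1 h, namely Hk2 (-0.95), Pgk1 (-0.47) and Ldha (-0.77). The authors' table, which holds the same exchange, gave lower Hk2 (-0.88) and Ldha (-0.84) at 1 h. Under the scanner labels single other probes were past the threshold at 1 h for Hk1 (0.34), Pkm2 (0.27) and Vegfa (0.27). At 12 h under the scanner labels the 8 genes not past the threshold ran from -0.22 (Slc2a1) to 0.26 (Ldha). At 12 h the exchanged labels gave 1 higher (24.8%) and 3 lower (24.4%), with lower Slc2a1 (-0.72), Pkm2 (-0.51) and Pgk1 (-0.18) and higher Vegfa, and the authors' table gave lower Slc2a1 (-0.65) and Pkm2 (-0.43). With the dye as a block and the scanner labels, Slc2a1 (-0.22), Pgk1 (0.16) and Ldha (0.26) passed at 12 h as well.

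Summed intensities of markers of other cells varied between the conditions of each cell type. In B cells, 5 or 6 of 9 macrophage markers were well above background, with Fcgr1, Itgam and Mrc1 not above it and Ctsd the brightest probe. Their summed intensity, Cy3 and Cy5, was 2978 and 2504 untreated, 3179 and 2991 with KLA for 1 h, 6583 and 6629 with DMSO for 12 h, and 5877 and 5890 with KLA for 12 h. The 3 erythroid markers tested, with Hbb-b1 the brightest probe, summed to 11427 and 10011, 13274 and 9919, 5130 and 4950, and 4434 and 3498 in the same order. Both sums set the pair of early samples apart from the pair at 12 h under the scanner labels. With the labels exchanged they set the controls apart from the KLA samples. The median log2 signal of the macrophage markers did not follow their sum. It was 6.66 and 6.66 untreated and 6.81 and 6.74 with KLA for 1 h, in Cy3 and Cy5. With DMSO for 12 h it was 6.51 and 6.54, and with KLA for 12 h 7.14 and 7.14. T cell markers in B cells summed to 4580 to 5777, with that for Cd2 or Lck the brightest probe. Only 3 to 5 of these 7 were well above background, and their median log2 signal was 6.22 to 6.42. Thy1 was not above background in any B cell condition. In BMDM, 6 to 8 of 8 neutrophil markers were well above background, with S100a9 the brightest probe. They summed to 15072 and 14480 with DMSO for 1 h and 24929 and 21173 with KLA for 1 h. At 12 h they summed to 11759 and 10061 with DMSO and 22859 and 19896 with KLA. Their median log2 signal was 8.59 and 8.62, 9.15 and 8.92, 8.49 and 8.29, and 8.75 and 8.70 in the same order. In EPM 4 of the 8 were well above background, with S100a8 or S100a9 the brightest probe, and the 8 summed to 1285 and 1189 untreated, 2038 and 2117 with KLA for 1 h, 1181 and 1188 with DMSO for 12 h, and 1341 and 1665 with KLA for 12 h. In EPM and BMDM the brightest B cell marker probe was that for Blnk, which macrophages also express. Probes of different genes differ in sensitivity, so these ranks are of signal, not of RNA. In these sums the number of other cells and the marker RNA per cell, of any cell type, cannot be told apart. The part of other cells in the results was not tested.

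EPM and BMDM responses differed at 1 h for 1 gene with a higher EPM response (4.07% of all genes), Hk2, and for 1 with a lower one (5.49%), Pfkfb3. At 12 h, 1 gene had a higher EPM response (23.2%), Pgk1, and 3 had a lower one (24.6%), namely Hk1, Pfkfb3 and Vegfa. With array means these 6 differences missed the threshold. Without quantile normalization the median of all genes moved from -0.026 to 0.17 in the 12 h response, from -0.025 to -0.14 in BMDM at 12 h, from -0.0074 to -0.14 for B cells minus EPM and from -0.026 to -0.22 for B cells minus BMDM.

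With array means as the samples, the 2 control arrays of a cell type served as replicates of 1 control, so the comparator changed along with the unit, and the 2 effects cannot be told apart. The KLA arm was then 1 array, and the spread came from the control arrays alone, which differ in time. All 6 EPM changes at 1 h, both BMDM changes at 1 h and both B cell changes at 12 h then missed the threshold. At 12 h Hif1a passed in EPM, and Hif1a, Hk1 and Pfkfb3 passed in BMDM. These 4 also kept their call under the other alternatives, with log2 values over all of them of 0.97 to 1.30 for Hif1a in EPM, 0.89 to 1.27 for Hif1a in BMDM, 0.42 to 1.29 for Hk1 and 1.83 to 2.78 for Pfkfb3.

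Other genes around the pathway changed in both directions, and their counts were not tested against those of all genes. Of all genes, 19.6% rose and 34.3% fell at 12 h in EPM and 28.6% and 36.3% in BMDM, and at 1 h 9.39% and 19.7% in EPM and 11.0% and 17.6% in BMDM. Of 18 other glycolytic enzymes, 5 rose and 8 fell at 12 h in EPM, and the same counts held in BMDM, against 0 and 6 at 1 h in EPM and 1 and 4 in BMDM. Hk3, a myeloid hexokinase, rose by 0.58 and 1.32 at 12 h in EPM and BMDM. Ldhb, the subunit that favours pyruvate, changed by -1.41 and -1.34. Aldoc, an aldolase, changed by -1.79 in EPM, and Pfkm, a phosphofructokinase, by -1.29 in BMDM. In B cells limma called 0 of the 18 at 1 h and at 12 h. With the B cell labels exchanged, 6 were higher and 6 lower at 1 h (25.0% and 22.4% of all genes) and 6 were higher and 7 lower at 12 h (24.8% and 24.4%).

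Among 11 glucose and lactate transporters, 3 rose and 5 fell at 12 h in each macrophage, with 2 up and 2 down at 1 h in EPM and 3 up and 1 down in BMDM. Slc2a6 rose by 1.67 at 1 h and 3.86 at 12 h in EPM and by 2.71 and 5.26 in BMDM, which was more than any of the 10 genes. Slc16a3, the lactate exporter MCT4, rose by 0.79 and 0.74 at 12 h. The glucose transporter genes Slc2a8 (-1.57 and -1.32) and, in BMDM, Slc2a3 (-1.42) fell. In B cells 1 of the 11 was lower at 1 h, Slc2a5 (-0.20), and 1 was higher at 12 h, Slc16a1 (0.35). Slc16a1 turned to -0.66 with the labels exchanged, to -0.60 in the authors' table, which holds the same exchange, and to -0.16 with array means. Slc2a5 was 0.016 with array means and -0.42 with the labels exchanged. The exchanged labels gave 4 higher and 5 lower at each time.

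Of 9 genes for fructose bisphosphate control and gluconeogenesis, 0 rose in limma in any KLA comparison under the scanner labels, while 4 fell in EPM and 6 in BMDM at 12 h, among them Pfkfb4 in EPM (-1.29), Pck2 in BMDM (-1.81) and G6pc3 in both (-0.84 and -0.93). At 1 h 3 fell in each macrophage. Of 10 genes for the entry of pyruvate into mitochondria, 1 rose and 5 fell in EPM and 1 rose and 4 fell in BMDM at 12 h, and at 1 h 4 and 3 fell. Pdk3, an inhibitory kinase of pyruvate dehydrogenase, rose by 0.29 and 1.20, and Pdk1, another, fell (-1.37 and -1.42). Pdk4 was at least 1.29-fold higher in B cells at 12 h. Of 7 pentose phosphate genes, 1 rose and 4 fell in EPM and 1 rose and 5 fell in BMDM at 12 h, with 3 falls in each at 1 h. Rpe rose by 0.42 and 1.03, and the non-oxidative enzymes Taldo1 (-1.53 and -1.45) and Tkt (-1.08 and -1.47) fell. With the B cell labels exchanged, the 3 lists had 2, 1 and 3 genes higher and 1, 1 and 2 lower at 1 h, and 2, 2 and 3 higher and 1, 0 and 1 lower at 12 h.

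Genes for partners and regulators of HIF1A moved in both directions. Of 8 such genes, 0 rose and 6 fell in EPM and 1 rose and 4 fell in BMDM at 1 h, and 2 rose and 4 fell in EPM and 3 rose and 3 fell in BMDM at 12 h. Vhlh, the mouse gene for the ubiquitin ligase subunit that marks HIF1A for decay, fell at 1 h (-1.05 in EPM and -0.55 in BMDM) and rose by 0.37 in EPM at 12 h. Egln1, a prolyl hydroxylase that senses oxygen, fell at 12 h (-0.64 and -1.10), and Egln3 rose by 0.60 in EPM. Arnt changed by 0.28 in BMDM at 12 h, which turned to -0.073 without quantile normalization. Epas1, the gene for HIF2A, fell in EPM (-1.22 and -1.34), and in BMDM at 12 h was at least 1.27-fold lower, a direction that turned with an offset of 16 (0.026) and with the processed signal (0.48). In B cells limma called 0 of the 8 under the scanner labels, and with the labels exchanged 1 was higher at 1 h and 2 were lower at 12 h.

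Of 16 other hypoxia-responsive genes, 8 rose and 5 fell in EPM and 5 rose and 8 fell in BMDM at 12 h, with 2 up and 5 down in EPM and 3 up and 5 down in BMDM at 1 h. Ero1l, an oxidase of the endoplasmic reticulum, rose by 0.52 at 1 h in EPM. Adm rose at 1 h (1.88 in EPM and 0.67 in BMDM), P4ha1 rose in BMDM at 12 h (1.20) and Mxi1 fell at 12 h (-1.89 and -0.97). Hmox1 rose in EPM (1.53) and in B cells (0.77) at 12 h, the only 1 of the 16 past the threshold in B cells under the scanner labels. With the labels exchanged, 2 were higher and 9 lower at 1 h in B cells and 1 was higher and 8 lower at 12 h, where Hmox1 was 1.34. Of 9 genes of the VEGF family and its receptors, 4 rose and 3 fell in EPM and 5 rose and 2 fell in BMDM at 12 h, and with the B cell labels exchanged 1 rose and 2 fell in B cells at each time. Kdr rose by 1.63 and 2.60 and Vegfc by 2.73 in BMDM, while Vegfb fell (-2.00 and -2.25). The genes named from these lists were taken from those with the most extreme called changes and no overlap of channels, up to 2 in each direction from each list and up to 1 in B cells. With array means as the samples, the changes named at 1 h missed the threshold in all cell types, apart from Epas1 in EPM, and so did those named in B cells at 12 h. At 12 h those of Hk3, Aldoc, Slc16a3, Slc2a8, Pfkfb4, Pdk3, Pdk1, Rpe and Vhlh in EPM and of Pfkm, Slc2a8, Arnt, Epas1 and Mxi1 in BMDM missed it too.

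Across the 12 conditions the genes closest to each of the 10 in pattern, by Pearson's r of condition means, were Tcp10c for Hif1a (0.964), Fap for Hk1 (0.986), Ero1l for Hk2 (0.984) and AU018823 for Pfkfb3 (0.982). Those for Pgk1, Eno1, Pkm2 and Ldha were Cops5 (0.993), Ormdl2 (0.995), Plekhb2 (0.994) and Nat5 (0.982). Slc2a1 was nearest to 1190002H23Rik (0.959) and Vegfa, with the loosest match, to Ttll6 (0.867). The conditions share slides and arrays, and these values are a description.

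HIF1 binds the letters ACGTG or GCGTG in DNA. RefSeq promoter windows of build GRCm38.p6, from 250 bases before to 50 after each start, matched all 10 genes with 17 windows (Pkm2 under its current symbol Pkm). On either strand, ACGTG lay in 10 of the 17 windows and 9 of the 10 genes, and GCGTG in 9 windows and 6 genes, whereas among all 32851 windows 19.6% held ACGTG and 32.4% held GCGTG. Of the windows of Eno1, 2 overlap, and a match is a description, not a site. The 4 genes with a single window, namely Hif1a, Slc2a1, Hk2 and Pgk1, are shown as the 250 bases before the start, read 5′ to 3′ on the strand of the gene. Capitals mark ACGTG and its reverse complement CACGT, which join in CACGTG and count there on both strands. The stretches are chr12:73907617-73907866 on the plus strand for Hif1a, chr4:119108495-119108744 on the plus strand for Slc2a1, chr6:82774455-82774704 on the minus strand for Hk2 and chrX:106186850-106187099 on the plus strand for Pgk1.
Hif1a: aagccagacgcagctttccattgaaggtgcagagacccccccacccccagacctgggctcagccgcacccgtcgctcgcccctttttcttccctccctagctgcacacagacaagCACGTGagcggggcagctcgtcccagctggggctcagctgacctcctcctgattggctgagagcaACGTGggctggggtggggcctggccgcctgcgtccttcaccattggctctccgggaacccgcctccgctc
Slc2a1: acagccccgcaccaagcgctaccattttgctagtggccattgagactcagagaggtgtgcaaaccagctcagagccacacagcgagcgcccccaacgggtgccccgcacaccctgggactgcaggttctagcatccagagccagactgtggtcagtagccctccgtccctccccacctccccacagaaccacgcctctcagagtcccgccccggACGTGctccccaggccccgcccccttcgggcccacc
Hk2: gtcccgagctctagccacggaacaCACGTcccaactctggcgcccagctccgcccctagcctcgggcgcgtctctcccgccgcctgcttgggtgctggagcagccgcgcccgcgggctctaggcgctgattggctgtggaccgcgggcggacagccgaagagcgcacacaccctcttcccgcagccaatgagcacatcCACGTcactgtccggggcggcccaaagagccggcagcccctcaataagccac
Pgk1: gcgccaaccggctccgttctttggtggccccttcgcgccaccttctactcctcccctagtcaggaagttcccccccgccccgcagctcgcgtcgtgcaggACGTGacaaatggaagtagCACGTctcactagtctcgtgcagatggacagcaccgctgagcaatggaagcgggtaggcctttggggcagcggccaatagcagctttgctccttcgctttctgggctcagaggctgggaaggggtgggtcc
Hif1a had 3 such matches before its start, Slc2a1 had 1, Hk2 had 2 and Pgk1 had 2. Factor binding at these promoters was not measured on the arrays.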

How the data were processed

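Scanner files of 12 arrays gave 24 channels, 2 for each of 12 conditions on 3 slides, and 0 columns were not mapped to a sample. Per the file headers, the authors extracted the intensity values of each spot with Agilent Feature Extraction 9.5.3.1. The authors' deposited table holds normalized intensities of 38516 probes on a linear scale, with column medians of 73.8 to 80.1, and how it was scaled is not stated. Its columns were matched to channels by label, and the match was checked by correlation across probes.

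In R 4.3.3 with limma 3.58.1 and the data.table package (version 1.17.8), mean signals were background-corrected by normexp (offset 50), loess-normalized within arrays and quantile-normalized on average intensity between arrays. Control spots were dropped after the background correction and before the loess step, and outlier spots were left out after normalization. Spots of a probe were averaged, which gave 41174 probes from 43379 spots, 34850 of them with a symbol. Genes were named by the symbol in the scanner files, and for the 8826 symbols with several probes the brightest probe on average stood for the gene. A gene was tested if some condition had Cy5 and Cy3 signals that the scanner software marked as well above background, which held for 17347 of 21597, with 134 missing values. A limma fit of 12 conditions with 12 residual degrees of freedom gave p-values adjusted over all genes, with a threshold of 0.05. The fit was tested on simulated data.

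The Cy5 minus Cy3 difference correlated in all 66 pairs of arrays (0.267 to 0.627), and its median size was 0.0804 log2. The replicates are the 2 dyes of an array, so the p-values measure only the spread between channels, and the labels do not say if these were separate samples. The 10 genes and the other lists were chosen with earlier results of these data known, and 2 genes first placed in those lists are not reported here. Alternatives were an offset of 16, the processed signal, quantile normalization over single channels or none, the authors' table, other filters, other probes, the dye as a block, array means as samples (with both control arrays of a cell type as 1 control), centring, fewer conditions, exchanged B cell labels and leaving out each channel. Promoter windows were searched on both strands.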

Additional observations from a re-analysis of the deposited data

Results flagged for a closer look

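The KLA responses of EPM and BMDM differed for 5 of the 10 genes by a limma test of the difference itself, once for Hk2, Hk1, Pgk1 and Vegfa and at both times for Pfkfb3. Of all genes tested, 4.07% had a higher and 5.49% a lower EPM response at 1 h, and 23.2% and 24.6% at 12 h. The 12 h count, 4 of the 10, was below the 47.8% of all genes that differed. With the dye as a block, the responses of Slc2a1, Hk2 and Ldha at 12 h and of Slc2a1 at 1 h also differed. The share of the 10 at 12 h was then above that of all genes. At 1 h the Hk2 response differed by 0.483 (EPM 0.431, BMDM -0.0523, adjusted p = 0.0271) and that of Pfkfb3 by -0.657 (-0.422 and 0.235, adjusted p = 0.00353). At 12 h the differences were -0.513 for Hk1 (0.252 and 0.765, adjusted p = 0.000404), -1.14 for Pfkfb3 (1.24 and 2.38, adjusted p = 1.9e-06), 0.435 for Pgk1 (0.239 and -0.196, adjusted p = 0.00158) and -1.17 for Vegfa (0.612 and 1.78, adjusted p = 3.51e-08). With array means as the samples, which also replace the control of the same time by both control arrays, these 6 differences missed the threshold. The Hk2 difference also missed it with the processed signal (0.54) and on leaving out any 1 of 4 channels (0.41 to 0.44), that of Pfkfb3 at 1 h on another probe (-0.32), and that of Pgk1 in the authors' table (0.49) and on its other probe (0.67). The Pgk1 value in BMDM turned positive without quantile normalization and in the authors' table.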

How the results depend on the processing

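Of 2584 values of the 10 genes under alternatives, 2236 kept their call and direction, 101 no longer passed, 71 newly passed, 22 turned direction with a call under at least 1 of the settings compared, and 154 changed sign with no call. The 2236 include values past the threshold in neither setting. The 2584 include alternatives that leave the log2 value as it was, such as the mean of probes for genes with 1 probe and the used probe on its own. The cause was not tested.

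With array means as the samples, both control arrays of a cell type also replaced the control of the same time, so the unit and the comparator changed together, and the KLA arm was 1 array with no spread of its own. Genes called among the 10 went from 6 to 0 in EPM at 1 h, 7 to 1 in EPM at 12 h, 2 to 0 in BMDM at 1 h, 8 to 3 in BMDM at 12 h, 2 to 0 in B cells at 12 h, 6 to 2 for EPM minus BMDM at baseline, 2 to 0 for the response at 1 h and 4 to 0 at 12 h. Slc2a5 in B cells at 1 h was 0.016 and Slc16a1 in B cells at 12 h -0.16.

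With the dye as a block, which pairs the channels by dye across arrays, the counts were 5 in BMDM at 1 h (39.7% of all genes called), 5 in B cells at 12 h (11.2%), 3, 6 and 7 for the controls of EPM, BMDM and B cells (29.7%, 34.3% and 55.5%), and 7 for the response at 12 h (57.8%).

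With the B cell labels exchanged, the counts were 3 at 1 h (47.4% of all genes called), 4 at 12 h (49.1%) and 0 between controls by limma (5.17%). Hk2 was -0.95 at 1 h, -0.092 at 12 h and 0.012 between controls, and Pgk1 was -0.18 and Slc16a1 -0.66 at 12 h. The authors' table holds the same exchange of B cell columns. In it the B cell counts were 2 at 1 h (41.8%) and 0 between controls (2.51%), Hk2 was -0.88, -0.056 and 0.0059, and Slc16a1 was -0.60 at 12 h. Pgk1 was 0.024 there in BMDM at 12 h.

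Without quantile normalization, Pgk1 was 0.039 and Arnt -0.073 in BMDM at 12 h, B cells minus BMDM gave -0.26 for Hif1a and -0.31 for Vegfa, and the Hif1a response at 12 h differed by 0.40. Epas1 in BMDM at 12 h was 0.026 with offset 16 and 0.48 with the processed signal. With that signal Vegfa in B cells at 12 h and the difference in the Hk2 response at 1 h no longer passed.

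With each probe on its own, all 5 probes tested for Hk1 and all 3 for Pfkfb3 passed in EPM at 12 h. Hif1a and Hk2 have 1 probe each, the one used, which passed there. That of Hk2 also passed in B cells at 12 h and in the response at 1 h. For these genes no other probe could be compared. Single probes gave 0.0047 for Pfkfb3 in EPM at 1 h, 0.34 for Hk1 in B cells at 1 h, -0.49, -0.56, -0.38 and -0.19 for Hk1 in EPM minus BMDM, 0.11 for Hk1 and 0.34 for Pfkfb3 in B cells minus EPM and -0.21 for Hk1 between BMDM controls. The mean of probes gave -0.31 for Hk1 in EPM minus BMDM. With it Pfkfb3 and Pkm2 in BMDM at 1 h and Pkm2 between EPM controls newly passed.

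Leaving out 1 channel, with the lone channel assumed to vary like the others, gave 5 to 6 in EPM at 1 h, 6 to 7 at 12 h, 2 to 2 and 6 to 8 in BMDM, 0 to 0 and 2 to 2 in B cells, 6 to 6 for EPM minus BMDM, 9 to 10 and 6 to 6 for B cells minus EPM and BMDM, 1 to 1, 2 to 3 and 2 to 3 for the controls, and 1 to 2 and 4 to 5 for the responses.

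Over all genes, array means gave 165 calls against 5049 in EPM at 1 h (88.5% higher against 32.3%), 2006 against 9349 at 12 h (48.6% higher against 36.3%), 99 against 4956 in BMDM at 1 h (96.0% higher against 38.4%), 3653 against 11265 at 12 h, 14 against 897 in B cells at 1 h (100.0% higher), 1 against 918 at 12 h, 3403 against 10029 for EPM minus BMDM, and 0 by limma against 1658 and 107 against 8291 for the responses. The block gave 2406 and 1937 in B cells, 5152 against 3312 for EPM controls and 3102 for the response at 1 h. Exchanged labels gave 8218, 8526 and, between controls, 897 against 8218, and the values of the authors gave 7178, 7582 and 430. A filter on all channels gave 429, 386 (65.8% higher against 53.2%), 1983 for EPM controls and 770 for the response at 1 h, and the 4 conditions of B cells alone gave 392 and 533. No quantile normalization gave 1474 in B cells at 1 h (15.7% higher against 52.6%), and moved the share that was higher to 46.4% in EPM and from 44.0% to 29.8% in BMDM at 12 h, from 49.2%, 50% and 48.9% to 38.1%, 39.3% and 33.6% at baseline and from 48.5% to 76.6% for the response at 12 h. The share in EPM at 1 h was 46.2% in the authors' table and 44.7% when centred, and in BMDM 50.8% in the authors' table. Without 1 channel, EPM controls gave 2008 (untreated Cy5), BMDM controls 2502 against 4026 (DMSO 1 h Cy5), B cells at 1 h 354 (untreated Cy5), 487 (KLA Cy3) and 333 (KLA Cy5), and at 12 h 593 (KLA Cy5).

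Median spots read 2.31, 2.26 and 2.06 times background in EPM, BMDM and B cells.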

Other observations

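Among the other pathway genes, the transporter gene Slc2a6 rose more in both macrophages than any of the 10 genes. The pentose phosphate enzymes Taldo1 and Tkt and the lactate dehydrogenase gene Ldhb fell at 12 h in both. Lipid A is known to redirect glucose carbon in macrophages, and mRNA levels do not measure flux.

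Each condition rests on 1 array, and the 2 channels share its hybridization, so the tests do not cover variation between arrays. The early controls were untreated in EPM and B cells and DMSO in BMDM, so the baseline comparisons with BMDM also hold the solvent. The 1 h changes in EPM and B cells were against untreated cells. The 1 h responses of EPM and BMDM thus rest on unlike controls. In EPM and B cells the early and 12 h controls also differ in the solvent. The B cell labels conflicted between files and were not resolved. Protein, oxygen and metabolite levels were not measured on the arrays. Dose was not given in the labels used.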
